A study of Mus musculus with 54 samples.

Results

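The immediate early genes are followed here as 10 genes, Fos, Fosb, Jun, Junb, Atf3, Egr1, Nr4a1, Ier2, Btg2 and Dusp1, taken by symbol from tables of 33280 gene symbols. Their levels were compared across 54 bulk RNA-seq libraries of macrophages sorted from mouse brain, in 18 groups of 3 mice each. Brains were freed of choroid plexuses, and 2 kinds of cell were sorted from them: microglia (MG), and the macrophages that line the leptomeninges and the perivascular spaces, called subdural CNS-associated macrophages (sdCAMs). BLZ945 inhibits the CSF1 receptor and depletes these cells, which then repopulate, and lipopolysaccharide (LPS) is a bacterial endotoxin that macrophages sense through Tlr4.

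Wild-type (WT) mice and mice labelled Ccr2 KO (Ccr2-/- below) were left untreated and injected with PBS (untreated), given vehicle and then LPS (CTL LPS), or given BLZ945 and then LPS (BLZ LPS). No group of these mice received vehicle and then PBS. What is called the LPS response of WT and Ccr2-/- mice below thus compares CTL LPS with untreated mice. The part of vehicle in it cannot be told apart from that of LPS. Reporter mice with the genotype label Ccr2CreERT2/CreERT2:R26tdT/tdT (Ccr2Cre below) all received BLZ945 and tamoxifen and then PBS (BLZ PBS) or LPS (BLZ LPS), so none of them had never been depleted. In these mice tamoxifen turns on tdTomato (tdT) in cells that express Ccr2 at that time, and tdT+ and tdT- sdCAMs were sorted separately. LPS or PBS was injected 8 weeks after the end of treatment and the cells were harvested 12 h later, so each value is a late time point and no peak shortly after injection was sampled. Each library was 1 population of 1 mouse, and cell types from 1 mouse share that animal. WT and Ccr2-/- libraries carried batch label 1 and all reporter libraries batch label 2, so genotype and batch cannot be told apart between them. No test was made across the batch labels. The age of the mice was not given in the labels.

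Immediate early genes are switched on within minutes of a stimulus without new protein synthesis, through factors that already sit in the cell, among them Srf with the Elk proteins, Creb1 and NF-kB. Their transcripts decay quickly, and many of the proteins they encode are transcription factors or inhibitors that act on the next wave of genes. Fos, Fosb, Jun, Junb and Atf3 encode subunits of AP-1, a dimeric factor. Egr1 is a zinc finger factor, Nr4a1 an orphan nuclear receptor, Ier2 a nuclear protein, Btg2 an antiproliferative protein and Dusp1 a phosphatase that switches off MAP kinases. In brain macrophages these genes respond to inflammatory stimuli, and in general they can also be induced while tissue is dissociated into single cells. Brains were digested enzymatically before sorting in all groups, and its part in any level given here was not tested.

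Promoter sequences were examined because the members share a mode of induction. RefSeq promoter windows of build GRCm38.p6, from 250 bases before to 50 bases after the gene start, were matched by symbol for 8 of the 10 members, without Egr1 and Ier2. Both strands were searched for the CArG box bound by Srf, the cyclic AMP response element (CRE, TGACGTCA), its core (TGACG or CGTCA, also contained in the CRE), the AP-1 site (TGACTCA or TGAGTCA) and the NF-kB site. A CRE was found in 2 of the 8 windows, those of Btg2 and Dusp1, against 1.79% of all 32851 windows. The CRE core was found in 7 of the 8, in every window except that of Jun, against 20.8% of all windows. NF-kB sites were found in 3, in Fos, Fosb and Nr4a1, against 4.51% of all windows. The CArG box and the AP-1 site were found in 0 of the 8, against 1.63% and 5.2% of all windows. These matches are letters in a window and were not tested for use. Sites outside the windows were not searched, so a 0 does not show that a gene lacks the site.

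Stretches from 200 to 51 bases before the start are shown for Dusp1, Fos and Junb, which rose after LPS in 1 or more populations, and for Btg2, which was called in none of the 20 comparisons but also carries a CRE. Each is printed 5′ to 3′ on the gene's strand, with CREs and CRE cores in capitals. The CRE of Dusp1 lies 143 to 136 bases before the start and that of Btg2 166 to 159 bases before it.
Dusp1, chr17:26508523-26508672, minus strand: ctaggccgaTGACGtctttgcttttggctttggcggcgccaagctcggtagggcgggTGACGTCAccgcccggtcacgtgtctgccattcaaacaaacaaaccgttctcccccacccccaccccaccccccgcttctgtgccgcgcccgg
Fos, chr12:85473690-85473839, plus strand: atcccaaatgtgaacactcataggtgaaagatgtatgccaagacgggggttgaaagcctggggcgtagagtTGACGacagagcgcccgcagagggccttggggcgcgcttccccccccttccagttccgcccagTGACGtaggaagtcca
Junb, chr8:84978799-84978948, minus strand: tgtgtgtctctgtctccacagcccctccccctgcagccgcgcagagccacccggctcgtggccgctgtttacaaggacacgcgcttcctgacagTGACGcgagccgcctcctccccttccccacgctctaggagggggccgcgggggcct
Btg2, chr1:134079206-134079355, minus strand: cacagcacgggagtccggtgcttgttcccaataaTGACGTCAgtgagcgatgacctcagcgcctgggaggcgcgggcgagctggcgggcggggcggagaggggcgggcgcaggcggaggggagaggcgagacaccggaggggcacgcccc

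The libraries held between 1705930 and 11330781 counts, and the members together took 0.0449% to 0.348% of them. The microglia markers summed to 25930 to 27390 CPM (counts per 1000000, scaled as below) in untreated WT MG and to 4654 to 9985 in untreated WT sdCAMs, whereas the sdCAM markers summed to 115 to 141 and to 10440 to 19280. Ccr2 lay between 17.03 and 50.99 CPM in untreated WT sdCAMs and between 2.33 and 5.21 in those of Ccr2-/- mice. WT sdCAM libraries held few counts (1705930 to 7699790), a share of Saa3, a serum amyloid gene, of up to 35.8%, and a split in ribosomal protein content described with the mark below. Reporter sdCAM libraries after LPS shared these traits, with 2060240 to 8751293 counts. There Saa3 took 14.5% to 28.3% of counts in tdT- and 0.680% to 2.74% in tdT+ cells, and ribosomal protein genes 1.80% to 3.40% in tdT- and 0.807% to 0.963% in tdT+ cells. After LPS, the tdT+ sdCAM library of mouse 5 carried microglia markers at 9660 CPM, against 620 and 706 in the others of its group, and sdCAM markers at 1178 CPM, against 5450 and 5856.

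Levels are given as CPM scaled with TMM factors over all 54 libraries, which compare libraries for 1 gene and not genes with each other, since they are not per length. A gene was called where edgeR's quasi-likelihood test gave a Benjamini-Hochberg adjusted p under 0.05 over all genes tested and the level differed by more than 2-fold (1 on the log2 scale). Fold changes are sdCAM over MG or LPS over no LPS, ± their standard error (SE). In these bulk samples a lower level from fewer expressing cells and from less RNA per cell cannot be told apart. Libraries of a group came from separate mice, and the p-values measure the spread between them.

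The first comparison asked how the members stood in the 2 cell types without LPS. In untreated WT mice 5 of 10 members were called, 4 higher and 1 lower in sdCAMs than in MG, where 17.2% of all 13136 genes were called. With the mouse as a block 4 members and 1239 genes were called in place of 5 and 2261. Fos lay at 45.9, 163 and 107 CPM in the sdCAMs of mice 9, 14 and 15 and at 0.744, 3.77 and 3.68 in their MG. Every sdCAM library was above every MG library, and the log2 fold change was 5.27 ± 0.72 (adjusted p = 0.000106). In untreated Ccr2-/- mice 6 of 9 members tested were called, 4 higher and 2 lower, where 14.9% of all genes were. There Fos lay at 33.4, 73.6 and 108 CPM in sdCAMs of mice 1m, 3m and 5f and at 1.29, 0.0857 and 1.98 in MG. This difference was 6.05 ± 0.71 (adjusted p = 4.93e-06), again without overlap.

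Ier2 and Dusp1 followed Fos in direction in both genotypes. In WT sdCAMs Ier2 was at 51.8, 240 and 34.1 CPM in mice 9, 14 and 15, against 11.1, 17.9 and 8.80 in their MG (log2 fold change 3.15 ± 0.58, adjusted p = 0.00121). Mouse 14 set most of this mean of 108 ± 114 (SD, n = 3), and without its sdCAM library the difference was 1.73 and still called. Ier2 in Ccr2-/- sdCAMs, at 54.8 to 94.7 CPM, was above the 10.8 to 16.5 CPM of MG by 2.32 ± 0.32 (adjusted p = 1.56e-05). Dusp1 was at 47.1, 145 and 45.9 CPM in untreated WT sdCAMs and at 5.10, 10.8 and 5.21 in MG. The difference was 3.53 ± 0.51 in WT (adjusted p = 0.000134) and 2.25 ± 0.55 in Ccr2-/- mice (adjusted p = 0.00632), where sdCAMs held 22.1 to 36.7 CPM and MG 3.00 to 8.23.

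Junb ran the other way. It lay at 50.2, 68.9 and 59.5 CPM in untreated WT sdCAMs and at 115, 178 and 122 in MG of the same mice. It was thus lower in sdCAMs in every library (-1.19 ± 0.31, adjusted p = 0.0125), and in Ccr2-/- mice the difference was -1.58 ± 0.18 (adjusted p = 1.37e-06). Without MG of mouse 14 or sdCAMs of mouse 9 the WT call was lost, with adjusted p of up to 0.0837 over the refits without 1 library.

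The calls of Jun, Egr1 and Atf3 lay close to the limits. Jun was called higher in WT sdCAMs at 1.10 ± 0.35 (adjusted p = 0.0336), but the groups overlapped, with 206 to 509 CPM in sdCAMs and 137 to 223 in MG. The Jun call was lost in 5 of 6 refits without 1 library (0.69 to 1.39 over the 6) and with the mouse as a block (adjusted p = 0.0812). In Ccr2-/- mice Jun, at 0.70 ± 0.18, had an adjusted p of 0.00687 but stayed under the fold limit. Egr1 was called higher in Ccr2-/- sdCAMs (1.55 ± 0.54, adjusted p = 0.0477) and lost the call in 6 of 6 such refits at folds of 1.37 to 1.70 (adjusted p 0.0567 to 0.129), while in WT it was at 1.90 ± 0.86 (adjusted p = 0.134). Atf3, a stress-induced repressor, was called lower in Ccr2-/- sdCAMs (-1.30 ± 0.46, adjusted p = 0.0499) and lost the call in 5 of 6 refits, which gave -1.72 to -1.06, and with the mouse as a block (adjusted p = 0.0739).

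Btg2 was lower in sdCAMs in both genotypes without reaching the fold limit. In Ccr2-/- mice it lay at 130, 136 and 132 CPM in sdCAMs against 228, 236 and 235 in MG, a tight difference of -0.82 ± 0.14 (adjusted p = 0.000158). In WT the difference was -0.67 ± 0.42 (adjusted p = 0.278). Nr4a1 did not pass in either genotype and reached at most 8.94 CPM in these groups. Fosb lay at 0.779, 12.6 and 8.31 CPM in untreated WT sdCAMs and at up to 0.305 in MG (5.60 ± 1.87, adjusted p = 0.0501), whereas in the Ccr2-/- groups it was too low to be tested.

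**Figure D1:**
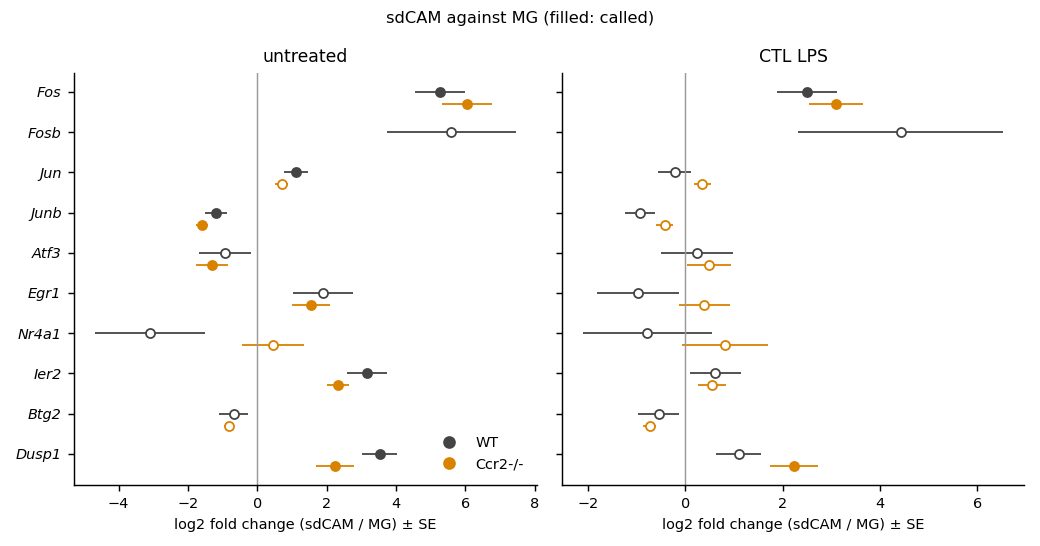
Log2 fold change of each member between sdCAMs and MG with its SE, in untreated mice (left) and after CTL LPS (right), for WT (dark) and Ccr2-/- mice (orange). Filled points were called; Fos stands at 5.27 and 6.05 without LPS and at 2.503 and 3.09 after it, and Junb is the member furthest to the left among the called ones.

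The same 3 members, Fos, Ier2 and Dusp1, were higher in MG of CTL LPS than of untreated mice in both WT and Ccr2-/-. In WT MG 4 of 9 members tested were called, 3 higher and 1 lower, where 16.6% of all genes were called. Dusp1 rose from 5.10, 10.8 and 5.21 CPM in untreated mice 9, 14 and 15 to 447, 185 and 209 in CTL LPS mice 1, 4 and 6. The lowest library after LPS was far above the highest without it, and the log2 fold change was 5.32 ± 0.43 (adjusted p = 1.81e-05). Ier2 rose from 11.1, 17.9 and 8.80 CPM to 163, 91.3 and 144 (3.40 ± 0.28, adjusted p = 5.44e-06).

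Fos rose in WT MG from 0.744, 3.77 and 3.68 CPM to 52.3, 8.62 and 20.3 (3.30 ± 0.70, adjusted p = 0.00618). Mouse 1 was highest for Fos, Dusp1, Ier2 and Egr1 among the CTL LPS libraries, and all 3 calls of higher genes stayed without it. Atf3 fell in WT MG, from 20.9, 17.3 and 20.1 CPM to 12.3, 7.37 and 7.20 (-1.11 ± 0.28, adjusted p = 0.00962), and dropped just under the fold limit without mouse 4 (-0.99) or without mouse 6 (-0.98). Junb, at 115 to 178 CPM before and 201 to 265 after LPS, passed the p limit with 0.80 ± 0.20 (adjusted p = 0.00838) but not the fold limit. Egr1 lay at 8.61 to 14.9 CPM before and at 106, 14.6 and 32.8 after LPS, with overlap (2.19 ± 0.75, adjusted p = 0.0587). Jun, Nr4a1 and Btg2 did not pass, and Fosb was at 0 in all 3 CTL LPS libraries.

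In Ccr2-/- MG 3 of 9 members were called, all higher, where 19.4% of all genes were. Dusp1 rose from 6.36, 3.00 and 8.23 CPM to 265, 323 and 274 (5.65 ± 0.77, adjusted p = 0.000975). Fos rose from 1.29, 0.0857 and 1.98 CPM to 26.8, 16.8 and 21.5 (4.35 ± 0.78, adjusted p = 0.00132) and Ier2 from 10.8 to 16.5 CPM up to 168 to 186 (3.65 ± 0.34, adjusted p = 6.52e-06). The spread among the mice after LPS was small, with SDs of 31.0, 5.01 and 9.06 CPM for Dusp1, Fos and Ier2. Jun (0.70 ± 0.15, adjusted p = 0.00269) and Junb (0.70 ± 0.15, adjusted p = 0.00236) passed the p limit and not the fold limit. Atf3 lay at 25.5 to 29.6 CPM before and 9.21 to 21.3 after LPS, a difference of -0.88 ± 0.44 that did not pass (adjusted p = 0.146).

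In reporter MG, which had all repopulated after BLZ945, 0 of 9 members were called by edgeR, where 1.02% of all genes were. At an unadjusted p under 0.05 there were 3, and DESeq2 called 2. Dusp1 lay at 14.3, 0.620 and 0 CPM in PBS mice 174, 175 and 177 and at 470, 391 and 436 after LPS, with no overlap and a difference of 6.42 ± 1.67 (adjusted p = 0.128). Ier2 lay at 29.5, 12.0 and 3.58 CPM after PBS and at 382, 184 and 179 after LPS (4.01 ± 0.82, adjusted p = 0.0815). Nr4a1 was at 0 to 0.620 CPM after PBS and at 5.44 to 6.71 after LPS (4.202 ± 1.56, adjusted p = 0.284). The 3 PBS mice differed widely among themselves, as described for all populations of these mice below.

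**Figure D2:**
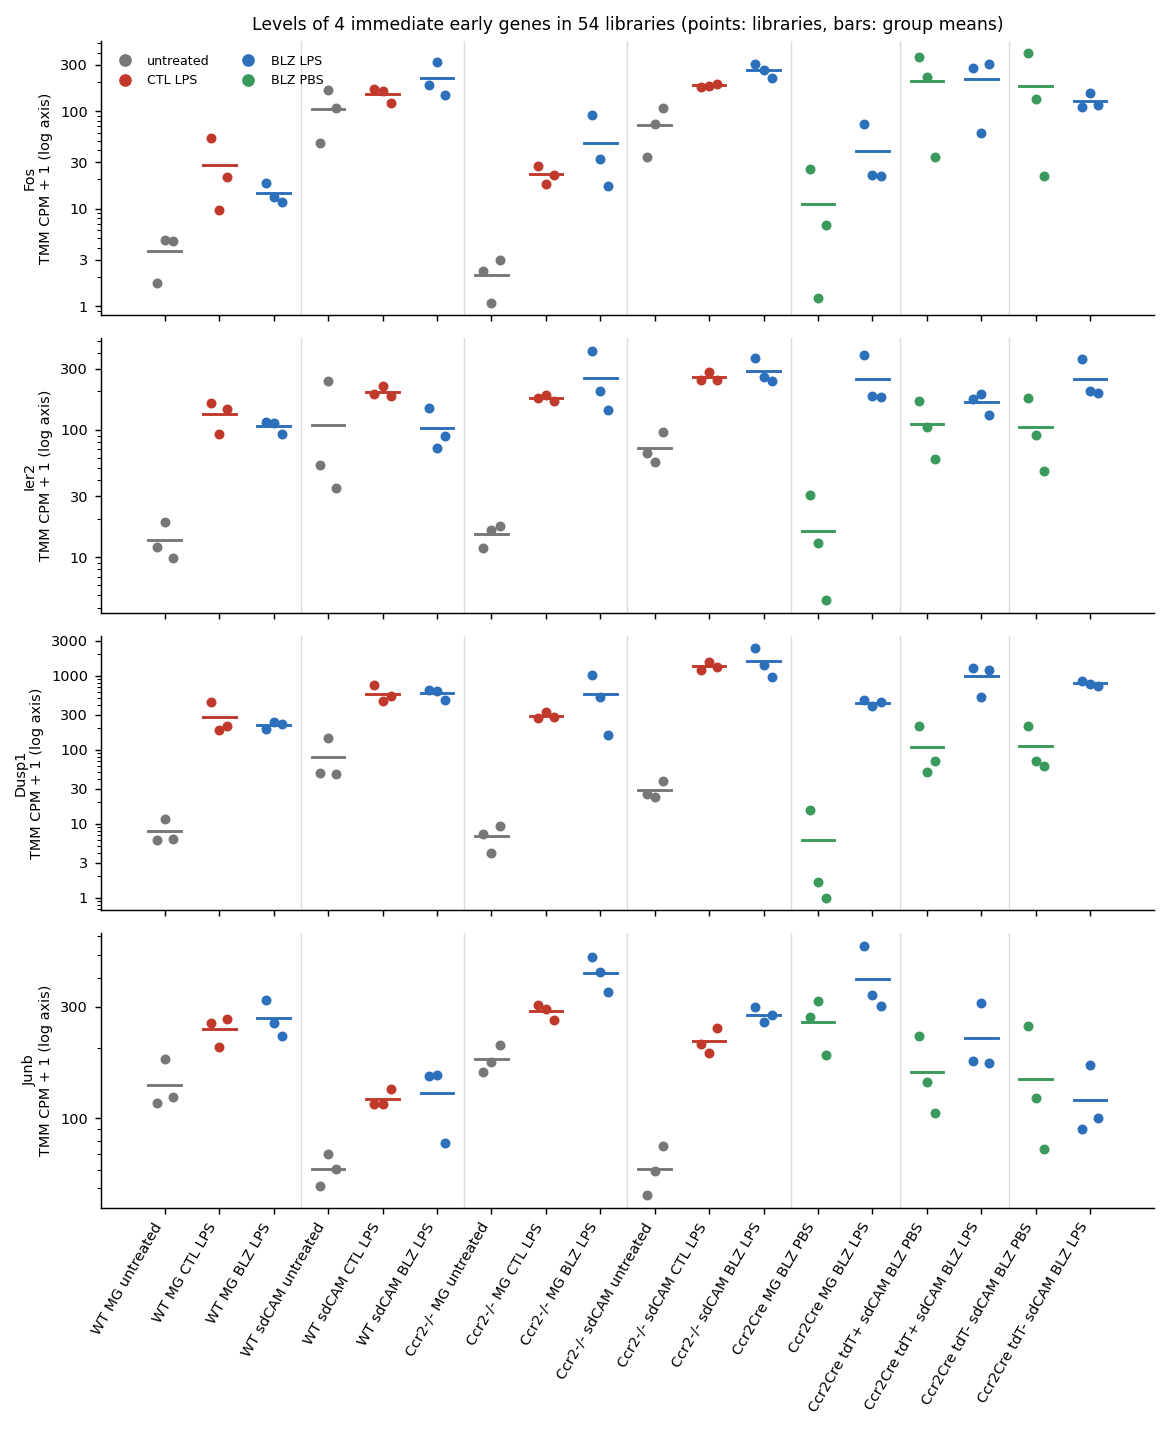
Levels of Fos, Ier2, Dusp1 and Junb in all 54 libraries (points, TMM-scaled CPM + 1 on a log axis) with the mean of each group of 3 (bars), coloured by condition. MG without LPS are lowest for Fos, Ier2 and Dusp1, while for Junb the untreated WT and Ccr2-/- sdCAMs are lowest, with means of 59.5 and 59.8 CPM.

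Dusp1 was the 1 member called after LPS in all 4 sdCAM populations. WT sdCAMs had 1 of 9 members called, where 6.4% of all genes were. Dusp1 rose from 47.1, 145 and 45.9 CPM in untreated mice 9, 14 and 15 to 746, 450 and 530 in CTL LPS mice 1, 4 and 6 (2.97 ± 0.72, adjusted p = 0.0346). The groups did not overlap, but the call was lost in each of the 6 refits without 1 library, with adjusted p between 0.0554 and 0.12 and 0 members called, while the log2 fold change stayed at 2.67 to 3.78. With the mark as a covariate, with ComBat-seq over the mark, and in the marked libraries alone 1 member was called each time.

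The other members of WT sdCAMs did not pass the test. Fos was at 45.9, 163 and 107 CPM before and 168, 160 and 122 after LPS, with overlap (0.64 ± 0.52, adjusted p = 0.48). Ier2 lay at 34.1 to 240 CPM before and 182 to 218 after LPS (0.95 ± 0.67, adjusted p = 0.405). Junb, at 50.2 to 68.9 CPM before and 114 to 132 after LPS, did not overlap, yet its difference of 1.15 ± 0.40 did not pass (adjusted p = 0.101). Fosb lay at 0.779, 12.6 and 8.31 CPM before and at 0, 1.17 and 0.307 after LPS (-4.01 ± 1.961, adjusted p = 0.23). Summed neutrophil markers moved with LPS in these libraries, from 0 to 94.2 CPM up to 360 to 3282. Among them S100a8 went from a mean of 20.4 to 1415 CPM and Mmp8 from 0 to 10.1. S100a9 went the other way, from a mean of 22.45 to 3.40 CPM, and Ly6g and Retnlg were at 0 in all of these libraries. TMM factors were 0.344 to 0.494 in these CTL LPS libraries and 0.8425 to 1.19 in the untreated ones. Before that scaling the members together took 0.0474% to 0.0624% of counts after LPS and 0.0576% to 0.141% without it. The part of these markers and of the scaling in the Dusp1 and Junb differences was not tested.

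In Ccr2-/- sdCAMs 4 of 9 members were called, all higher, where 21.4% of all genes were. Dusp1 rose from 24.3, 22.1 and 36.7 CPM in mice 1m, 3m and 5f to 1203, 1534 and 1307 in mice V1m, V2m and V4f (5.61 ± 0.34, adjusted p = 1.32e-07). Junb rose from 45.7, 58.5 and 75.0 CPM to 208, 188 and 243 (1.83 ± 0.19, adjusted p = 1.38e-05). Ier2 rose from 64.9, 54.8 and 94.7 CPM to 245, 284 and 246 (1.85 ± 0.22, adjusted p = 4.57e-05). Fos rose least of these, from 33.4, 73.6 and 108 CPM to 178, 182 and 191 (1.36 ± 0.32, adjusted p = 0.00574). All 4 calls held in all 6 refits without 1 library. Atf3, at 0.88 ± 0.40, did not pass (adjusted p = 0.124), nor did Jun, Egr1, Nr4a1 and Btg2. Summed neutrophil markers moved with LPS here too, from 0.905 to 2.51 CPM up to 77.4 to 123, with Ly6g and Retnlg at 0. Among them S100a8 went from a mean of 1.53 to 74.6 CPM, Mmp8 from 0.0349 to 21.3 and S100a9 from 0.0349 to 0.678. The part of these markers in the results was not tested.

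In the reporter mice Dusp1 was the single member called in tdT+ sdCAMs (1 of 10, where 13.4% of all genes were) and in tdT- sdCAMs (1 of 10, where 26.6% were). In tdT+ cells it rose from 207, 49.5 and 70.7 CPM in PBS mice 174, 175 and 177 to 1275, 520 and 1185 in LPS mice 1, 5 and 7 (3.19 ± 0.58, adjusted p = 0.00205). The lower value of mouse 5 belongs to the library with microglia markers, and the call held without it. In tdT- cells Dusp1 rose from 207, 69.7 and 59.2 CPM to 850, 783 and 734 (2.81 ± 0.57, adjusted p = 0.00178). Ier2 in tdT- cells, at 46.5 to 177 CPM after PBS and 194 to 355 after LPS, did not overlap and just missed the limit (1.25 ± 0.47, adjusted p = 0.0572). Nr4a1 in tdT- cells lay at 39.2, 13.2 and 19.1 CPM after PBS and at 7.07, 3.16 and 6.67 after LPS (-2.09 ± 0.81, adjusted p = 0.0674). Fos overlapped between PBS and LPS in both populations, with differences of 0.06 ± 0.87 in tdT+ and -0.54 ± 0.88 in tdT- cells. Neutrophil markers summed to 598 to 2359 CPM in tdT- cells after LPS, with Ly6g and Retnlg at 0, against 0 to 4.33 after PBS. There S100a8, Mmp8 and S100a9 had means of 0, 1.44 and 0 CPM after PBS and of 1286, 58.6 and 4.00 after LPS. In tdT+ cells the summed neutrophil markers went from 0 to 1.38 CPM up to 16.3 to 70.9, with S100a9, Ly6g and Retnlg at 0 after LPS. The T cell gene Cd3g was called lower in tdT+ cells, from a mean of 40.1 CPM to 0. The libraries differed between PBS and LPS as well. In tdT+ cells they held 8652557 to 9290262 counts after PBS and 2060240 to 5467630 after LPS. Lars2, a mitochondrial tRNA ligase, took 0.0108% to 0.0159% of these after PBS and 1.45% to 7.24% after LPS. In tdT- cells TMM factors were 1.03 to 1.07 after PBS and 0.470 to 0.700 after LPS, with Lars2 at 0.00895% to 0.00934% and 0.0434% to 1.01%. The part of these markers and library differences in the Dusp1 results was not tested.

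**Figure D3:**
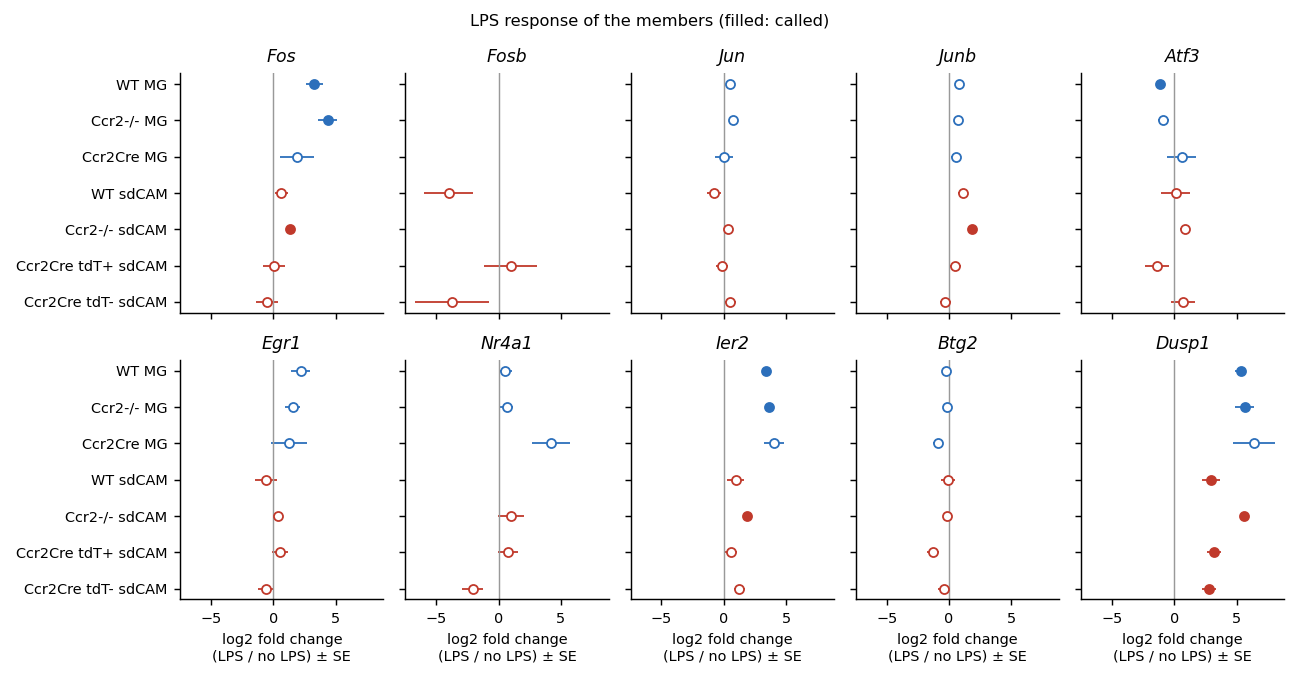
Log2 fold change of each member after LPS with its SE in 7 populations, MG in blue and sdCAMs in red, with filled points for calls and no point where a gene was too low to be tested. Dusp1 is to the right of 2.8 in every population, Fos and Ier2 are further right in MG than in sdCAMs, and Btg2 is near or left of 0 throughout.

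The cell types were compared again after LPS. In WT CTL LPS mice 1 of 10 members was called between sdCAMs and MG, where 35.5% of all genes were. Fos was the one called, with 168, 160 and 122 CPM in sdCAMs of mice 1, 4 and 6 against 52.3, 8.62 and 20.3 in their MG (2.503 ± 0.62, adjusted p = 0.00507). Dusp1 had a higher scaled level in sdCAMs of each mouse, at 746, 450 and 530 CPM against 447, 185 and 209, and its difference of 1.09 ± 0.46 did not pass (adjusted p = 0.0701). With the mouse as a block it passed (adjusted p = 0.0171), which made 2 members called. TMM factors were 0.344 to 0.494 in these sdCAM libraries and 1.30 to 1.37 in their MG. Before that scaling the members together took 0.0474% to 0.0624% of counts in these sdCAMs and 0.129% to 0.185% in their MG. The direction of Dusp1 without the scaling was not tested. In Ccr2-/- CTL LPS mice 2 of 9 members were called, where 18.2% of all genes were: Fos at 3.09 ± 0.55 (adjusted p = 0.000383) and Dusp1 at 2.24 ± 0.49 (adjusted p = 0.00258). Ier2 was 0.62 ± 0.53 higher in WT and 0.55 ± 0.29 higher in Ccr2-/- sdCAMs (adjusted p = 0.372 and 0.175).

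Whether the LPS response itself differed between the cell types was tested with an interaction term, the log2 fold change of sdCAMs minus that of MG. In Ccr2-/- mice 3 of 9 members were called, where 6.92% of all genes were. The response of Ier2 was smaller in sdCAMs by -1.77 ± 0.42 (adjusted p = 0.0116), and that call held in 12 of 12 refits without 1 library. Junb responded more in sdCAMs, by 1.16 ± 0.25 (adjusted p = 0.00468), and kept the call in 11 of 12 refits, all except the one without sdCAMs of untreated mouse 1m (0.96). The Fos response was smaller in sdCAMs by -2.96 ± 0.87 (adjusted p = 0.0435), a call lost in 10 of the 12 refits, with adjusted p of up to 0.111. Dusp1, in contrast, gave -0.01 ± 0.57, with a 95% interval from -1.13 to 1.11, so a difference of 2-fold in either direction lay within the interval.

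In WT mice 0 of 10 members were called for the interaction by edgeR, where 1.46% of all genes were. At an unadjusted p under 0.05 there were 5, and DESeq2 called 3. Fos was at -2.77 ± 0.86 (adjusted p = 0.11), Ier2 at -2.54 ± 0.76 (adjusted p = 0.0935) and Dusp1 at -2.44 ± 0.66 (adjusted p = 0.0673). The Junb value of 0.26 ± 0.43 had an adjusted p of 0.81. The low TMM factors of the WT sdCAM CTL LPS libraries, given above, enter these WT terms, and their part was not tested. Whether these interactions differ between WT and Ccr2-/- mice was not tested.

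Earlier depletion was compared with vehicle among mice that all received LPS. By edgeR 0 of 9 members were called between BLZ LPS and CTL LPS in WT MG, where 0.0848% of all genes were called, and 0 in WT sdCAMs, where 0% were. The same held for Ccr2-/- MG (0 of 9, 0.0173% of all genes) and Ccr2-/- sdCAMs (0 of 9, 0.00837%). DESeq2 called 0 members in each of the 4, and at an unadjusted p under 0.05 there were 0, 0, 1 and 0. The 1 was Junb in Ccr2-/- MG, at 304, 293 and 262 CPM in CTL LPS and 491, 420 and 347 in BLZ LPS mice (0.54 ± 0.15, adjusted p = 0.58).

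The differences that these comparisons allow are not all small. Dusp1 in Ccr2-/- MG after BLZ LPS spread from 155 to 1023 CPM over 3 mice, and its difference of 0.96 ± 0.61 had a 95% interval from -0.22 to 2.15. In WT sdCAMs Ier2 was at 148, 70.7 and 87.8 CPM in BLZ LPS and 189, 218 and 182 in CTL LPS mice, without overlap, and its -1.01 ± 0.67 did not pass (adjusted p = 0.733). All 3 of these CTL LPS libraries and 1 of the BLZ LPS libraries carry the mark described below, and with the mark as a covariate the Ier2 difference was -0.28 (adjusted p = 0.993). TMM factors were 0.344 to 0.494 in these CTL LPS and 0.369 to 1.28 in these BLZ LPS libraries, and their part was not tested. Mouse B2m was highest of its Ccr2-/- group for Fos, Ier2, Dusp1, Junb and Egr1 in MG, at 90.6, 416, 1023, 491 and 85.7 CPM. In sdCAMs of the same mouse Fos, Ier2, Dusp1, Junb and Egr1 were again the highest of the group, at 306, 363, 2361, 298 and 36.03 CPM.

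Within repopulated reporter mice tdT+ and tdT- sdCAMs were compared. After PBS 0 of 10 members were called between tdT+ and tdT- sdCAMs by edgeR, where 0.0236% of all genes were, and after LPS 0 of 10, where 10.8% were. At an unadjusted p under 0.05 there were 1 and 2 members, and DESeq2 called 0 and 1. The intervals were wide, with Fos after PBS at 0.15 (95% interval -1.56 to 1.86) and Dusp1 at -0.05 (-1.10 to 1.01). Nr4a1 was the 1 after PBS, at 4.00, 3.61 and 7.20 CPM in tdT+ cells of mice 174, 175 and 177 and 39.2, 13.2 and 19.1 in tdT- cells. It was lower in tdT+ cells of each mouse (-2.28 ± 0.81) and did not pass (adjusted p = 0.869). Atf3 after LPS lay at 0, 3.38 and 8.94 CPM in tdT+ and 12.2, 24.8 and 28.9 in tdT- cells of mice 1, 5 and 7 (-2.40 ± 0.98, adjusted p = 0.142), and the tdT+ library of mouse 5 was the one with microglia markers. Fosb was listed at 0 in all 3 tdT- libraries after LPS and at 0.407, 1.41 and 9.25 CPM in tdT+ cells.

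For tdT- cells of mouse 1 and tdT+ cells of mouse 7 after LPS, the library names in the sample descriptions hold each other's index number, while the count columns hold their own. With the 2 columns exchanged, 0 members were called after LPS again, while the calls over all genes fell from 1375 to 0. The Dusp1 response to LPS stayed called in both populations with the exchange, 1 member in each.

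After PBS several members followed the same order of mice in the reporter libraries, beside the difference between MG and sdCAMs. Fos in tdT+ cells was at 356, 223 and 33.2 CPM in mice 174, 175 and 177, and in tdT- cells at 394, 134 and 20.8. Jun kept this order in all 3 populations, with 540, 352 and 148 CPM in tdT+ cells, 518, 323 and 130 in tdT- cells and 395, 271 and 54.1 in MG. The same order held for Ier2, at 167, 105 and 57.9 CPM in tdT+ cells, 177, 90.2 and 46.5 in tdT- cells and 29.5, 12.0 and 3.58 in MG. Egr1 also fell in this order in each population, from 70.0 to 16.2 CPM in tdT+ cells, from 60.7 to 15.4 in tdT- cells and from 23.9 to 0.199 in MG. In MG Fos, at 24.8, 0.207 and 5.87 CPM, broke it, as did Dusp1 in tdT+ cells (207, 49.5 and 70.7) and Nr4a1 in tdT+ cells (4.00, 3.61 and 7.20, with mouse 177 highest). The tdT+ and tdT- values of 1 mouse were thus closer for Jun than the values of different mice, a description of 3 mice with no test.

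**Figure D4:**
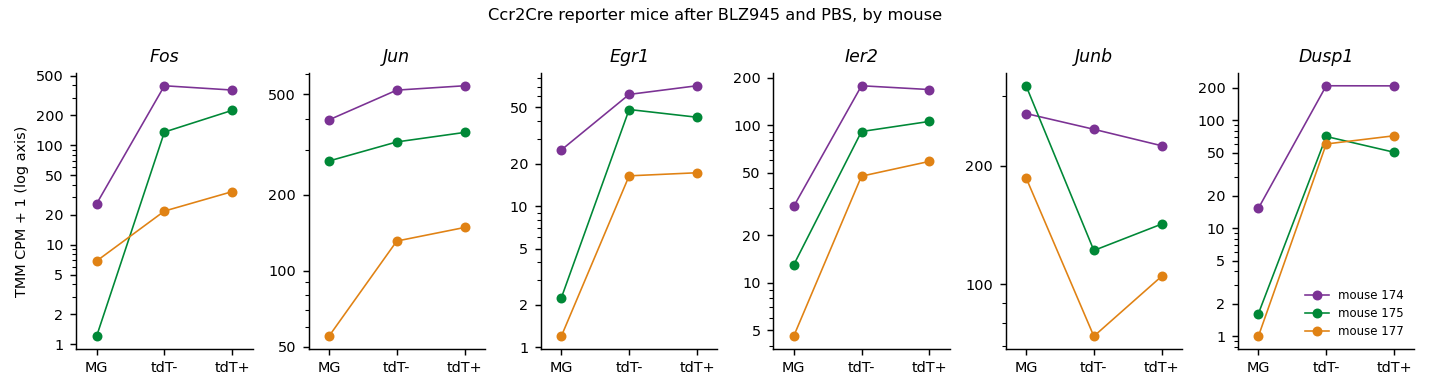
Levels of 6 members (TMM-scaled CPM + 1, log axes that differ between panels) in MG, tdT- and tdT+ sdCAMs of the 3 reporter mice after BLZ945 and PBS, with lines joining the libraries of 1 mouse. Mouse 174 is highest in both sdCAM populations for all 6 and mouse 177 lowest for Fos, Jun, Egr1, Ier2 and Junb, as with Jun at 540 against 148 CPM in tdT+ cells.

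The labels mark 6 of the 9 WT sdCAM libraries with an IEG correction that they do not explain: mice 1, 4 and 6 (CTL LPS), 12 (BLZ LPS) and 9 and 14 (untreated). Mice 8 and 11 (BLZ LPS) and 15 (untreated) were unmarked, as were all libraries of other groups. If the mark was set from the levels of these genes, a test of them against it is not independent. By edgeR 0 of 9 members tested were called between marked and unmarked libraries with condition as a covariate, where 8.01% of all genes were, nearly all of them higher in marked libraries (811 of 841). At an unadjusted p under 0.05 there was 1 member, and DESeq2 called 0.

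All 10 members overlapped between marked and unmarked libraries. How many of all genes overlapped was not counted, so this does not set the members apart. Fos had its lowest, median and highest level at 45.9, 154 and 168 CPM in marked and at 107, 185 and 323 in unmarked libraries, so the highest library was unmarked. Jun reached 130, 230 and 509 CPM in marked and 148, 181 and 206 in unmarked libraries, and Egr1 6.99, 19.7 and 86.8 against 9.64, 24.5 and 26.8. The highest Jun, Egr1, Ier2 and Fosb levels of the 9 belonged to untreated mouse 14, which was marked. Btg2 was the 1 member under an unadjusted p of 0.05, at 97.4, 138 and 191 CPM in marked and 41.1, 50.1 and 123 in unmarked libraries (1.18 ± 0.43, adjusted p = 0.124).

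Other measures moved with the mark. Ribosomal protein genes took 2.62% to 4.29% of counts in marked and 0.742% to 0.955% in unmarked libraries, and Lars2, a mitochondrial tRNA ligase, 0.0581% to 2.09% and 4.14% to 6.21%. TMM factors ran from 0.344 to 0.988 in marked and from 1.19 to 1.28 in unmarked libraries. Among 10 heat shock genes tested 1 was called higher in marked libraries, near the 7.72% of all genes called higher. It was Hspe1, a mitochondrial chaperonin, at 3.89 ± 0.57 (adjusted p = 0.000656). S100a8, a neutrophil marker, was also called higher in marked libraries (5.57 ± 0.94, adjusted p = 0.00165), with overlap. The other neutrophil markers did not follow it as a set. Mmp8, with means of 8.58 CPM in marked and 13.2 in unmarked libraries, was not called (adjusted p = 0.927). S100a9, with means of 14.1 and 4.19 CPM, was not tested, and Ly6g and Retnlg were at 0. The same split appeared without any mark between reporter tdT- and tdT+ sdCAMs after LPS, which had ribosomal shares as given above, Lars2 at 0.0434% to 1.01% and 1.45% to 7.24%, and TMM factors of 0.470 to 0.700 and 1.18 to 1.30. The part of these differences in the members' levels was not tested.

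**Figure D5:**
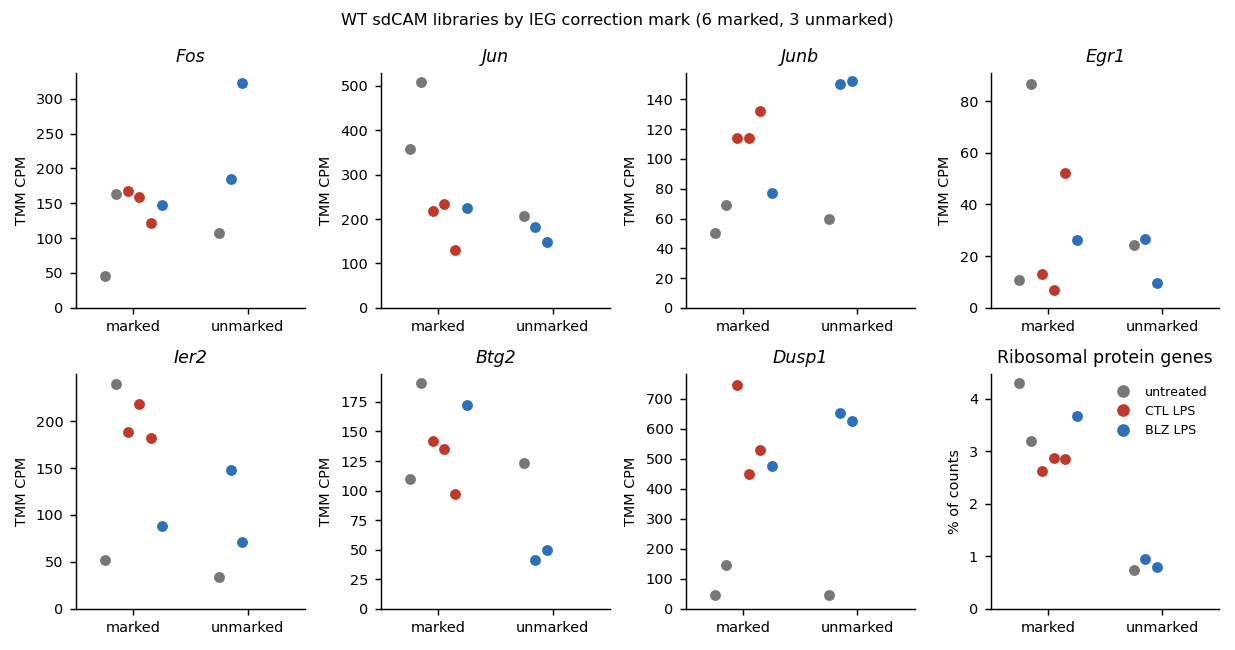
Levels of 7 members (TMM-scaled CPM, linear axes from 0) and the share of counts in ribosomal protein genes (%) in the 9 WT sdCAM libraries, split by the IEG correction mark and coloured by condition. The members shown overlap between the 6 marked and 3 unmarked libraries, and the overlap of all genes was not counted. The ribosomal share lies above 2.62% in all marked and below 0.955% in all unmarked ones.

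Across all 18 groups the order of mean Fos levels ran from 263 CPM in Ccr2-/- sdCAMs after BLZ LPS to 1.12 in untreated Ccr2-/- MG. Every sdCAM group mean stood above every MG group mean for Fos, the lowest sdCAM group being untreated Ccr2-/- at 71.5 CPM and the highest MG group Ccr2-/- BLZ LPS at 46.03. Neighbouring groups in this order overlapped in 17 of 17 pairs, as they did for Fosb, Jun, Atf3, Egr1 and Nr4a1. For Junb, Ier2 and Btg2 16 of 17 neighbours overlapped. Dusp1 ran from 1566 CPM in Ccr2-/- sdCAMs after BLZ LPS to 4.97 in reporter MG after PBS, and 13 of 17 of its neighbours overlapped. Its 7 groups without LPS were the 7 lowest, from reporter tdT- sdCAMs at 112 CPM downward. These orders set reporter groups beside groups of the other batch label, so they are a description with no test.

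Genes with a similar pattern were ranked by Pearson's r with the members' mean standardised level over the 54 libraries, among 8617 genes. Zfp36, which encodes a protein that destabilises cytokine mRNAs, came first at r = 0.78. Bcl3 (0.74), Anxa2 (0.73), Ms4a6b (0.68) and Jdp2 (0.68) followed. These libraries share cell types and treatments and span both batch labels, so the values are a description. Over the 9 WT sdCAM libraries alone the first was Prmt5 at 0.92, and none of the 5 genes named for the 54 libraries was among the first 5.

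Related genes on lists chosen for their function were counted beside the members. Of the other AP-1 and small Maf genes 4 of 8 tested rose and 1 fell in WT MG after LPS, 4 rose and 1 fell in Ccr2-/- MG, and 4 rose in Ccr2-/- sdCAMs, with medians of 1.12, 1.24 and 1.40 against 0.02, 0 and -0.05 for all genes. Of all genes 8.97% rose and 7.6% fell in WT MG, 10.5% and 8.91% in Ccr2-/- MG, and 10.9% and 10.5% in Ccr2-/- sdCAMs, and these shares also stand beside the counts that follow. Fosl2, a Fos-related AP-1 subunit, rose in WT MG from a mean of 11.2 ± 0.62 to 55.4 ± 14.2 CPM (SD, n = 3; log2 fold change 2.31 ± 0.21, adjusted p = 9.94e-06). Jdp2, an AP-1 repressor, rose by 2.23 ± 0.23 in WT MG, 2.42 ± 0.21 in Ccr2-/- MG and 2.13 ± 0.26 in Ccr2-/- sdCAMs. Batf, an AP-1 factor of immune cells, rose by 3.91 ± 0.80 in WT sdCAMs (adjusted p = 0.0187) and by 2.77 ± 0.24 in Ccr2-/- sdCAMs (adjusted p = 2.84e-06). Without LPS, Fosl2 was higher in WT sdCAMs than in MG (3.38 ± 0.53, adjusted p = 0.000309). In that comparison 2 of 8 genes of this list were called higher, where 11.9% of all genes were.

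Of 21 further immediate early genes 5 of 18 tested rose and 0 fell in WT MG, 7 rose and 1 fell in both Ccr2-/- MG and Ccr2-/- sdCAMs, and 3 of 15 rose in WT sdCAMs, where 3.69% of all genes rose and 2.7% fell. Klf4, a zinc finger factor, rose by 4.99 ± 0.45 in WT MG and 6.54 ± 0.48 in Ccr2-/- MG. Gadd45b, a stress response gene, rose by 6.33 ± 0.90 in WT sdCAMs and 4.89 ± 0.38 in Ccr2-/- sdCAMs. Dusp2, a nuclear MAP kinase phosphatase like Dusp1, rose in Ccr2-/- sdCAMs from 0.729 ± 0.65 to 90.6 ± 7.1 CPM (SD, n = 3; adjusted p = 4.27e-06), and Dusp6, which acts on ERK in the cytoplasm, fell there by 1.87 on the log2 scale (adjusted p = 4.3e-05). Without LPS, 4 of 19 were higher and 0 lower in WT sdCAMs than in MG, and 4 higher and 3 lower in Ccr2-/- sdCAMs, against 11.9% and 5.27%, and 8.48% and 6.38%, of all genes. Rhob, a small GTPase gene, was lower in Ccr2-/- sdCAMs (-2.55 ± 0.23, adjusted p = 6.56e-08), as was Myc (-1.44 ± 0.24, adjusted p = 0.000174). In reporter mice after LPS the counts were 4 higher of 17 in MG, 5 higher and 2 lower of 20 in tdT+ cells, and 3 higher and 3 lower of 20 in tdT- cells. Of all genes 0.607% were higher in reporter MG, 7.55% higher and 5.89% lower in tdT+ cells, and 14.6% higher and 12% lower in tdT- cells.

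Of 9 kinases and factors upstream of the members, 0 rose and 1 fell in WT MG after LPS, 0 and 2 in WT sdCAMs, 0 and 2 in Ccr2-/- MG, 1 and 2 in Ccr2-/- sdCAMs, 2 and 0 in tdT+ cells and 0 and 2 in tdT- cells. With 9 genes, 1 or 2 called is near the shares of all genes called in several of these populations, such as 7.6% lower in WT MG and 12% lower in tdT- cells. Creb1, the factor that binds the CRE, fell by 1.43 in WT MG (adjusted p = 0.00133), by 2.21 in WT sdCAMs (adjusted p = 0.0173), by 1.01 in Ccr2-/- MG (adjusted p = 0.0023) and by 1.79 in Ccr2-/- sdCAMs (adjusted p = 0.000459), all on the log2 scale. Mapk3, which encodes ERK1, fell by 1.92, 1.33 and 1.45 in WT sdCAMs, Ccr2-/- MG and Ccr2-/- sdCAMs. Srf rose in Ccr2-/- sdCAMs by 1.24 ± 0.33 (adjusted p = 0.0125).

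Heat shock genes, which also respond to handling stress, were also compared between the cell types without LPS. In WT sdCAMs 4 of 11 were called higher than in MG and 0 lower (median 1.16 against 0.03 for all genes), where 11.9% of all genes were higher and 5.27% lower, with Hsp90aa1 at 1.61 ± 0.45 (adjusted p = 0.0189). In Ccr2-/- mice edgeR called 0 of 11 between untreated sdCAMs and MG (median 0.49 against 0), with 4 at an unadjusted p under 0.05 and 0 called by DESeq2, where 8.48% of all genes were higher and 6.38% lower. After LPS 4 of 10 heat shock genes rose in Ccr2-/- MG, where 10.5% of all genes rose. In WT MG 1 rose and 2 fell, where 8.97% of all genes rose and 7.6% fell. Their part in the members' levels was not tested.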

How the data were processed

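RNA of sorted cells was amplified and sequenced by the authors as single reads, aligned with STAR 2.7.11a and counted per gene with featureCounts 2.0.8, per the labels and the study's methods. The deposited values are raw counts per gene symbol in 3 tables of 18 columns, not normalized. Whether counting used strand is not given in the sources used here, and several genome builds are named, so no read coordinates are given. The study left immediate early genes out of its own bulk analysis. No molecular identifiers were used, so counts are reads and not molecules.

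Counts were tested with edgeR 4.0.16 (R 4.3.3; filterByExpr, TMM, robust quasi-likelihood fit, two-sided), with Benjamini-Hochberg adjustment over all genes tested, in 20 comparisons. WT and Ccr2-/- cell types were fitted over their 3 conditions for LPS and BLZ945 effects, and over all 18 libraries of a genotype for cell type effects. All reporter sdCAMs were fitted together. Alternatives were DESeq2 1.42.0, median-of-ratios size factors, no filter on low counts, no fold limit, leaving out each library, the mouse as a block, an exchange of 2 columns with conflicting index numbers and, for WT sdCAMs, the mark as a covariate, ComBat-seq (sva 3.50.0) or marked libraries only. The script was tested on simulated data.

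The members, gene lists, tests and alternatives were chosen with earlier results of these data known. Every member is named. From the other lists, up to 2 genes per direction and comparison are taken, those of smallest p among called genes whose higher group reached a mean of 10 CPM and no overlap between groups. Genes of similar pattern are the first 5 by r, after leaving out those under a mean of 10 CPM. Marker lists of microglia, sdCAMs and neutrophils were summed.

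Equal numbers mark cells of 1 mouse. The correlation of their deviations from the group means was 0 to 0.2 between MG and sdCAMs of WT mice, -0.13 to 0.33 in Ccr2-/- mice and 0.08 to 0.21 between tdT+ and tdT- cells. In reporter mice this correlation was -0.06 to 0.12 between MG and tdT- cells and 0.04 to 0.11 between MG and tdT+ cells. Titles of the Ccr2-/- LPS samples name the other cell type than their characteristics and library names do, and the latter were used.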

Additional observations from a re-analysis of the deposited data

Results flagged for a closer look

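In Ccr2-/- mice the LPS response of 3 members differed between sdCAMs and MG by an interaction term in edgeR, which marked them for a closer look. On the log2 scale the response of sdCAMs minus that of MG was -2.96 for Fos (adjusted p = 0.0435), -1.77 for Ier2 (adjusted p = 0.0116) and 1.16 for Junb (adjusted p = 0.00468). Untreated sdCAMs already stood at 71.5 ± 37.2 CPM (SD, n = 3) for Fos and 71.5 ± 20.8 for Ier2, against 1.12 ± 0.957 and 14.2 ± 3.00 in MG, whereas Junb started lower in sdCAMs, at 59.8 ± 14.7 against 178 ± 24.6. In WT mice the same 3 terms were -2.77, -2.54 and 0.26, with adjusted p of 0.11, 0.0935 and 0.81.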

How the results depend on the processing

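Of 319 refits of the 31 called members, 277 kept the call and 42 lost it, and 0 changed direction. Of 236 alternative counts of called members, 204 stayed within 1.5 times the value given.

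The number of called members moved in these cases. Without a fold limit it was 5 in Ccr2-/- MG after LPS and 2 between WT sdCAMs and MG after CTL LPS. DESeq2 gave 2 in reporter MG, 2 in tdT+ and 3 in tdT- sdCAMs after LPS, 2 between WT cell types after CTL LPS, 3 for the WT interaction and 1 between tdT+ and tdT- cells after LPS. Median-of-ratios size factors gave 2 in tdT- cells after LPS and 2 between WT cell types after CTL LPS. With no filter on low counts there were 1 in reporter MG, 2 in tdT+ and 2 in tdT- cells after LPS, 1 for BLZ945 in WT MG and 4 for the WT interaction. The causes were not tested.

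Leaving out 1 library gave 0 to 0 called members for LPS in WT sdCAMs, 1 to 2 for LPS in tdT- cells (2 without LPS mouse 5 or PBS mouse 174), and 3 to 5 between untreated WT cell types (3 without MG of mouse 14 or sdCAMs of mouse 9). It gave 1 to 2 between WT cell types after CTL LPS (2 without MG of mouse 1 or 4 or sdCAMs of mouse 6), 0 to 2 for the WT interaction (2 without untreated sdCAMs of mouse 15, 1 without those of mouse 9) and 0 to 1 for the mark (1 without untreated mouse 15).

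The mouse as a replicate block gave 2 called members between WT cell types after CTL LPS. It removed the calls of Jun in untreated WT and of Atf3 in untreated Ccr2-/- mice, and changed no other call of a member. Over all genes it gave 1239 calls in place of 2261 for untreated WT cell types and 89 in place of 192 for the WT interaction. Size factors by median of ratios moved the median log2 fold change of all genes from 0.04 to 0.23 for LPS in tdT- cells, from -0.12 to 0.13 between WT cell types after CTL LPS, from -0.23 to -0.07 for the WT interaction, from 0.11 to -0.02 between tdT+ and tdT- cells after LPS and from 0.03 to 0.13 between untreated WT cell types.

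In the LPS comparisons Fosb was too low to be tested in all MG and in Ccr2-/- sdCAMs, and Nr4a1 in WT sdCAMs. The spread between mice also differed, with biological coefficients of variation of 0.7 to 0.81 in WT sdCAMs and reporter populations against 0.257 in WT MG.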
